A study of Zea mays with 6 samples.

Results

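Abscisic acid (ABA) is the plant hormone of drought response and seed dormancy, and maize mutants that cannot make it germinate on the ear. It is cut from C40 carotenoids in plastids. Zeaxanthin epoxidase and the ABA4 protein lead to violaxanthin and neoxanthin, 9-cis-epoxycarotenoid dioxygenase (NCED) cleaves these to xanthoxin, and a short-chain dehydrogenase (ABA2) and an aldehyde oxidase turn xanthoxin into the hormone. Cytochromes P450 of the CYP707A family inactivate it by hydroxylation. Receptors of the PYR/PYL family bind the hormone and then hold back clade A protein phosphatases 2C (PP2C), which otherwise keep SnRK2 protein kinases switched off.

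The genes of this pathway were taken from the table of expression values of maize ovaries. A row was a member where it had no transcription factor family and its matched *Arabidopsis* symbol belonged to the NCED, ABA, AAO, CYP707A, PYR/PYL, PP2C or SnRK2 names, or where its description held the word abscisic or the enzyme name of NCED. The rule used no expression value. It found 71 genes among 25368 rows, 69 of them by symbol and 2 by description alone. They comprised 24 genes of synthesis, 4 of catabolism, 11 receptors, 15 phosphatases, 14 kinases and 3 others, and lay on all 10 chromosomes. Among the 71, 1 gene identifier also has a further row that the rule did not take, and that row was not counted as a member. Each maize gene carries the name of its matched *Arabidopsis* gene, so "NCED5 match" gives the nearest named relative and not a function shown in maize.

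The ovaries came from the maize inbred line Yu-A474, were taken before pollination from field plants under non-stress conditions, and were freed of glumes, lemma and palea. Ovaries with incompletely fused carpels (*ifc*) were compared with wild-type (WT) ovaries, with 3 libraries of each, and the labels name the genotypes IFC mutant and wild type. By the study's methods, WT and *ifc* ovaries were adjacent on the same ear, so the groups differ in ovary phenotype within 1 inbred line of partial penetrance, and the WT ovaries were not from a separate line. The labels name no further allele or agent.

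The table holds 1 FPKM (a fragment level scaled by transcript length and library depth, here with quartile normalization) for each phenotype, computed by the authors from the pooled reads of its libraries. Replicate values were not used here, so the values below carry no error, no difference was tested, and the spread between ovaries that a ratio should be read against is not known. The table gives no counts, and the mapped reads per library that the study lists were not used here. A gene was counted as past the fold where its FPKM differed more than 1.5-fold between phenotypes and exceeded 2 in *ifc* or WT. In whole ovaries, fewer cells of a type and less RNA per cell cannot be told apart.

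The labelled tissue was checked by a list of genes that act in carpels and ovules. All 24 matched rows of that list were above 0, with SEP3, SHP2 and AG matches among the highest. The SEP and AG genes also act in other floral organs, so the list does not mark carpel and ovule alone. Of the 24 rows, 21 were lower in *ifc*, beside 13011 of all 25368 rows. The summed FPKM of all 24 was 3354 in *ifc* and 3711 in WT. Past the fold was 1 of them, the INO match GRMZM2G046829 (4.17%, beside 5.55% of all rows). The 4 matches of the stamen and lodicule genes AP3 and PI were also all lower in *ifc*, with sums of 601 and 677. Green tissue genes summed to 668 and 717 over 24 rows. Of the guard cell list only the SLAC1 match had a row, at 5.21 in *ifc* and 5.95 in WT, and FAMA and MUTE had none. Of the anther and pollen list, the AMS match was at 0.452 in *ifc* and 0.119 in WT and the MYB33 match at 5.11 and 4.42, while 3 further rows were methionine synthases caught by a shared alias. The part of these tissues in the values below was not tested.

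The level of the ABA genes ran from 0.464 to 1475 FPKM in *ifc* against from 0.0947 to 921 in WT, and 0 members were listed at 0. Of the 71, 9 exceeded 100 FPKM in at least 1 phenotype, 35 lay above 10 and up to 100, 19 above 2 and up to 10, and 8 did not exceed 2. The highest were the RNA-binding and stress-ripening proteins found by description, followed by PP2C matches. The lowest were NCED and PYL2 or PYL5 matches. The order of the members was nearly the same in both phenotypes (Spearman's rho 0.991 across the 71 genes, a description, since genes are not replicates).

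**Figure D1:**
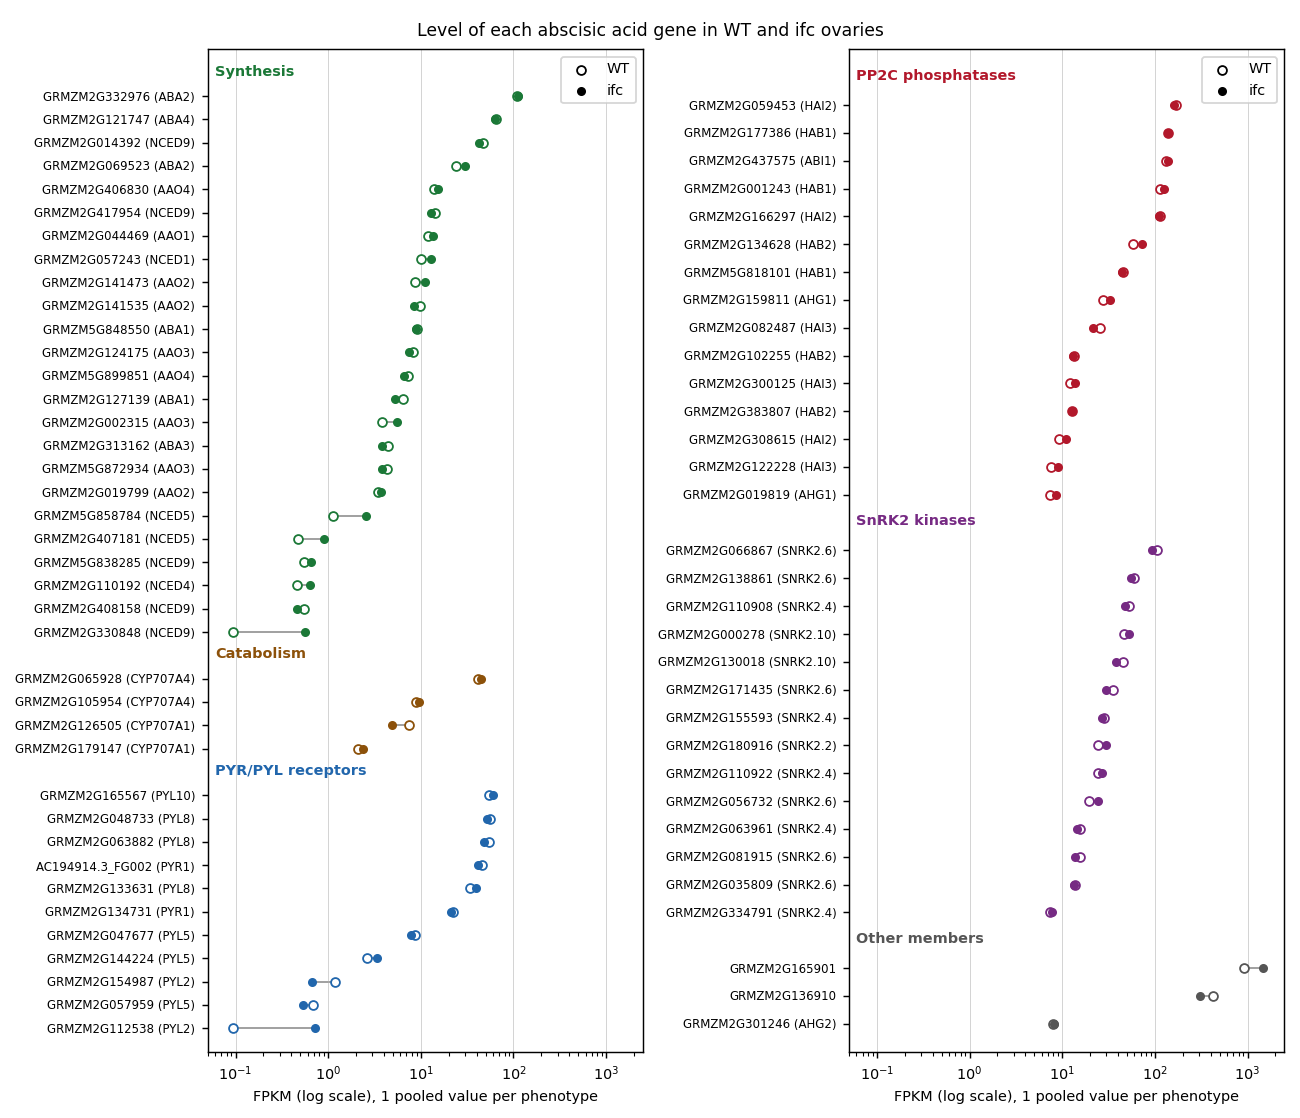
FPKM of the 71 abscisic acid genes on a log axis, 1 line per gene with its *Arabidopsis* match, open circles for WT and filled circles for *ifc*. Each circle is 1 pooled value without an error. The circles of most genes lie close together, and the widest gaps belong to genes near or under 2 FPKM.

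Of the 71 genes, 3 were past the fold (4.23%), beside 5.55% of all rows. Of these, 2 were higher in *ifc*, where 3.43% of all rows were, and 1 was lower, where 2.12% of all rows were. The members' share was thus close to the background. In all, 37 members were higher in *ifc* and 34 lower. The median log2 ratio of *ifc* to WT was 0.01 over the members and -0.01 over all rows, and the median size of the ratio, without its sign, was 0.18 and 0.17. Among the 44 members above 10 FPKM, 22 were higher and 22 lower. Of these 44, 43 (97.7%) lay within 1.5-fold of equality, beside 95.5% of all rows at that level, and 17 (38.6%) lay within 1.1-fold, beside 50.4%.

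Signs of small ratios depend on how the phenotypes are scaled. One row alone, GRMZM2G070931, accounted for 55.6% of all FPKM in WT, and its *ifc* value is listed as 0. Setting both totals equal with that row included would raise every log2 ratio by 1.13, and all 71 members would then be higher in *ifc*. The deposited scaling was therefore kept. Leaving that row out before equalizing the totals moved all ratios by -0.05 and turned the direction of 4 members. Centring on the median row moved them by 0.02 and turned 1.

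**Figure D2:**
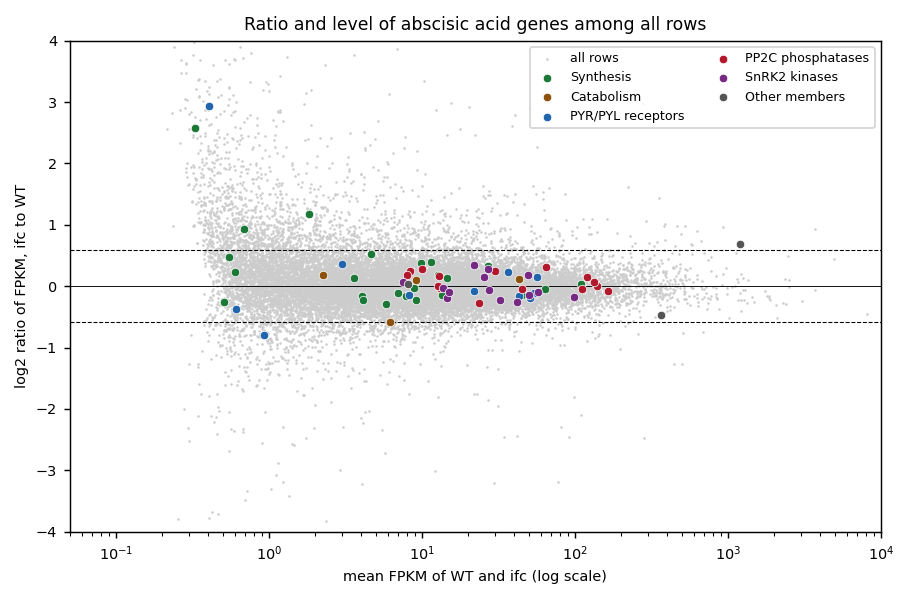
Log2 ratio of FPKM in *ifc* to WT against the mean FPKM of both (log axis), with grey points for all rows above 0 in both phenotypes within the plotted range, coloured points for the 71 abscisic acid genes by role, and dashed lines at 1.5-fold. Most members lie inside the dashed lines, and the 2 farthest from 0 are below 1 FPKM on average.

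The synthesis genes start from the carotenoid branch. The ABA4 match GRMZM2G121747, needed for neoxanthin in *Arabidopsis*, was at 63.1 FPKM in *ifc* against 65.0 in WT. The zeaxanthin epoxidase (ABA1) matches were lower, with GRMZM5G848550 at 8.87 in *ifc* and 9.02 in WT and GRMZM2G127139 at 5.28 and 6.44. The first and more abundant of these epoxidase genes was thus nearly level, and neither reached the fold.

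NCED makes the committed cut of the pathway. The *viviparous14* gene *vp14* (GRMZM2G014392, chromosome 1 from 250953387 to 250956063, minus strand, B73 RefGen_v3), the enzyme first found through maize seeds that sprout on the ear, had 42.8 FPKM in *ifc* against 47.3 in WT. A second gene described as Viviparous-14, GRMZM2G417954, had 12.9 and 14.3. These 2 genes shared the same small ratio, a log2 of -0.14 each, and made up 91.6% of the NCED sum in *ifc* and 95.7% in WT.

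The other 5 NCED matches were low, between 0.0947 and 2.53 FPKM. Their sum was 5.11 in *ifc* and 2.80 in WT, and 4 of the 5 were higher in *ifc*. Among them was the member with the largest ratio past the fold, the NCED5 match GRMZM5G858784 (chromosome 3, 87358368 to 87360132, minus strand), with 2.53 FPKM in *ifc* against 1.12 in WT (2.26-fold, log2 1.17). It stands just above the minimum of 2 FPKM. The second NCED5 match, GRMZM2G407181, had 0.899 in *ifc* against 0.473, a ratio of 1.899 in the same direction but under the minimum. The NCED9 match GRMZM2G330848 had 0.568 and 0.0947 (log2 2.58). The table gives no counts from which the error of such low values could be computed. Of all 4275 rows not above 2 FPKM, 62.7% were higher in *ifc*.

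The NCED sum as a whole was 60.8 in *ifc* and 64.4 in WT, so the count of genes leaned one way and the summed level the other. The rule also took in a pair of related carotenoid dioxygenases that carry NCED names but are known as CCD1 and CCD4, enzymes that cleave carotenoids to volatile compounds rather than to ABA precursors. The CCD1 match GRMZM2G057243, the maize gene *wc1*, had 13.0 FPKM in *ifc* against 9.92 in WT (1.31-fold). The CCD4 match GRMZM2G110192 was at 0.638 and 0.461.

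Xanthoxin dehydrogenase and aldehyde oxidase complete the hormone. The ABA2 match GRMZM2G332976, described in the table as the sex determination protein tasselseed-2, a short-chain dehydrogenase, was the highest synthesis gene, with 112 FPKM in *ifc* against 108 in WT. Its place among the synthesis genes rests on the symbol alone, and its locus overlaps that of another row. The second ABA2 match, GRMZM2G069523, had 30.3 and 24.05 (1.26-fold). Both were thus higher in *ifc*, though the first by only 0.04 on the log2 scale, which the scaling without the highest row turns to lower.

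Of the 9 aldehyde oxidase (AAO) matches, 5 were higher in *ifc* and 4 lower, and their sums were 75.6 and 71.4. The highest were GRMZM2G406830, with 15.4 in *ifc* and 13.97 in WT, and its neighbour GRMZM2G044469, with 13.5 and 11.96, which lie 32.2 kb apart on chromosome 7. The largest ratio among them was that of GRMZM2G002315, with 5.50 and 3.82 (1.44-fold), an annotated locus of only 393 bp on chromosome 8. On chromosome 1, 3 AAO2 matches lie in a row, with gaps of 82.4 and 49.8 kb. In this row, GRMZM2G141473 had 11.1 in *ifc* and 8.55 in WT, GRMZM2G141535 (named AO1 in RefSeq) 8.48 and 9.89, and GRMZM2G019799 3.75 and 3.41. These neighbours did not share a direction. AAO3 is the oxidase mainly linked to ABA in *Arabidopsis*, and its 3 matches summed to 16.8 in *ifc* and 16.4 in WT. Most of the sum of all AAO matches thus came from matches of other oxidases, whose part in ABA synthesis was not tested.

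On chromosome 5, GRMZM5G899851 and GRMZM2G124175 are listed as separate genes with a gap of 8.37 kb, while RefSeq (Zm-B73-REFERENCE-NAM-5.0) gives both as synonyms of 1 gene, AO2. Their log2 ratios were -0.12 and -0.16, with 6.66 in *ifc* and 7.23 in WT for the first and 7.46 and 8.33 for the second. The ABA3 match GRMZM2G313162, which adds sulfur to the molybdenum cofactor of these oxidases, had 3.78 and 4.45. Reads shared among near-identical oxidase or dioxygenase genes could have been divided between them by the authors' correction for multiple mapping, so the split within each family is uncertain.

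Catabolism had 4 genes, all CYP707A matches of ABA 8′-hydroxylase. The CYP707A4 match GRMZM2G065928 was the most abundant, with 44.6 FPKM in *ifc* against 41.0 in WT, 72.7% and 69.2% of the family's sum. The other CYP707A4 match, GRMZM2G105954, had 9.44 and 8.78. The only member past the fold in the direction of WT was the CYP707A1 match GRMZM2G126505 (chromosome 4, 159692122 to 159694949, plus strand), with 4.91 in *ifc* and 7.39 in WT (1.51-fold lower, log2 -0.59). It passed the limit by a small margin, and centring on the median row puts it under the limit. The remaining CYP707A1 match, GRMZM2G179147, had 2.38 and 2.11.

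The family's sum was 61.4 in *ifc* and 59.3 in WT, so the lower level of GRMZM2G126505 was offset in the sum by the CYP707A4 matches. The summed FPKM of CYP707A relative to that of NCED was 1.01 in *ifc* and 0.921 in WT. The CCD4 match GRMZM2G110192 lies 55.8 kb from GRMZM2G126505 and had a ratio of the opposite sign.

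**Figure D3:**
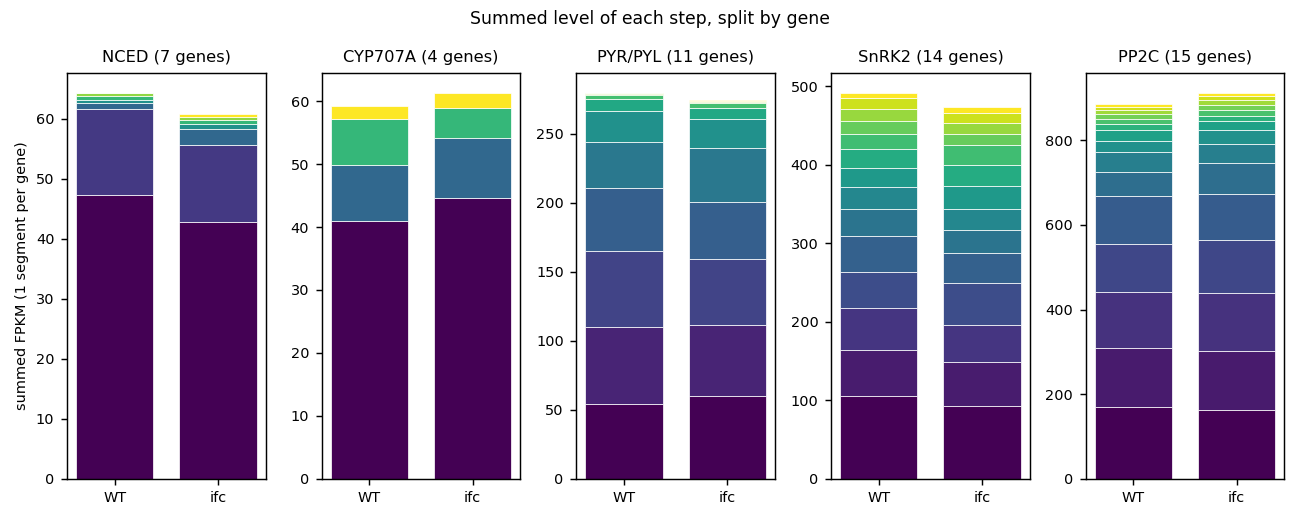
Summed FPKM in WT and *ifc* for NCED, CYP707A, the PYR/PYL receptors, the SnRK2 kinases and the PP2C phosphatases, each bar starting at 0 and split into 1 segment per gene from the highest mean level at the bottom. Each panel has its own scale. The bars of each pair are of similar height, from 60.8 in *ifc* and 64.4 in WT for NCED to 913 and 887 for PP2C.

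The receptors numbered 11, matched to 5 of the 14 *Arabidopsis* PYR/PYL symbols. Their sum was 274 FPKM in *ifc* against 280 in WT, with 4 higher in *ifc* and 7 lower. Of the 11, 0 were past the fold, beside 5.55% of all rows. The PYL10 match GRMZM2G165567 had 59.6 in *ifc* and 53.8 in WT. The PYL8 matches GRMZM2G048733, with 51.8 and 56.2, and GRMZM2G063882, with 47.6 and 54.6, were lower in *ifc*, while the remaining PYL8 match, GRMZM2G133631, had 39.6 and 33.7. PYL8 and PYL10 belong to the receptors that are monomers in *Arabidopsis*.

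PYR1 belongs to the receptors that form dimers in *Arabidopsis*, and it had 2 matches. AC194914.3_FG002 had 41.1 FPKM in *ifc* against 45.7 in WT, and GRMZM2G134731 had 21.2 and 22.5. Both were lower in *ifc* by less than 1.12-fold. Together the PYL8, PYL10 and PYR1 matches held nearly all of the receptor sum, and GRMZM2G165567, the highest of them in *ifc*, came after 2 PYL8 matches in WT.

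The PYL5 and PYL2 matches were low. Of the PYL5 matches, GRMZM2G047677 had 7.81 in *ifc* and 8.61 in WT, GRMZM2G144224 3.37 and 2.63, and GRMZM2G057959 0.532 and 0.692. The PYL2 match GRMZM2G154987 had 0.674 and 1.18. The other, GRMZM2G112538, had 0.721 in *ifc* and 0.0947 in WT (7.62-fold), the largest ratio of any member, but at under 1 FPKM it was not past the fold. The table describes GRMZM2G112538 as a pathogenesis-related protein 10, a relative of the receptors by fold of the protein chain, so its place among the receptors rests on the symbol alone.

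The clade A PP2C matches, the negative regulators of the pathway, were the most abundant core signalling group. All 15 exceeded 2 FPKM, with a sum of 913 in *ifc* and 887 in WT, 10 higher in *ifc* and 5 lower. Of the 15, 0 were past the fold, beside 5.55% of all rows. Under the scaling without the highest row the 15 split into 8 and 7. The HAI2 match GRMZM2G059453, PP2C3 in RefSeq, had 162 FPKM in *ifc* against 170 in WT. The HAB1 match GRMZM2G177386, PP2C4 in RefSeq, was the most level of all members, with 139.94 in *ifc* and 139.935 in WT. The HAI2 match GRMZM2G166297 had 110 and 114.

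The ABI1 match GRMZM2G437575, related to the phosphatase whose dominant mutation made *Arabidopsis* insensitive to the hormone, had 137 in *ifc* and 131 in WT. The HAB1 match GRMZM2G001243 had 126 and 114 and lies 20.6 kb away on the same strand of chromosome 8. Both were a little higher in *ifc*. The largest ratio of the group was a log2 of 0.32, for the HAB2 match GRMZM2G134628 with 72.4 and 58.0. Within the group, the sum of the 7 ABI1 and HAB matches was 546 in *ifc* and 514 in WT, and that of the 8 AHG1 and HAI matches was 367 and 373. Both AHG1 matches, of a phosphatase that acts in *Arabidopsis* seeds, were higher in *ifc*, with 32.4 and 27.2 for GRMZM2G159811 and 8.49 and 7.46 for GRMZM2G019819.

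The SnRK2 kinase matches numbered 14. Of these, 7 matched SnRK2.2 or SnRK2.6, kinases that phosphorylate ABA-response factors and ion channels once released from PP2C. The sum of all 14 was 474 FPKM in *ifc* against 492 in WT, with 5 higher in *ifc* and 9 lower. Of the 14, 0 were past the fold, beside 5.55% of all rows. The SnRK2.6 match GRMZM2G066867, whose *Arabidopsis* relative OST1 closes stomata, was the highest, with 93.2 in *ifc* and 105 in WT. The SnRK2.6 match GRMZM2G138861 had 55.7 and 59.2. Of the 6 SnRK2.6 matches, 5 were lower in *ifc*, and the exception, GRMZM2G056732, had 24.5 and 19.3 (1.27-fold higher). The single SnRK2.2 match, GRMZM2G180916, had 29.6 and 24.3.

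The 7 matches of SnRK2.4 and SnRK2.10, kinases linked to osmotic stress and not strongly activated by ABA in *Arabidopsis*, summed to 214 in *ifc* and 220 in WT. Among them, the SnRK2.10 match GRMZM2G000278 had 53.0 and 46.5 and the SnRK2.4 match GRMZM2G110908 had 47.4 and 52.6. The SnRK2.10 match GRMZM2G130018 had 37.9 and 45.4. This subgroup therefore held ratios of both signs, none above 1.198-fold.

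Relative to each other, the summed levels of the core groups differed little between phenotypes. The sum of the phosphatases was 3.33 times that of the receptors in *ifc* and 3.17 times in WT. It was 1.93 times that of all 14 kinases, the SnRK2.4 and SnRK2.10 matches included, in *ifc* and 1.80 times in WT. The sum of the kinases was 1.73 times that of the receptors in *ifc* and 1.76 times in WT. These ratios do not depend on the scaling between phenotypes, but they have no error.

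The 3 other members include the most abundant. The gene described as glycine-rich RNA-binding, abscisic acid-inducible protein, GRMZM2G165901 (RAB15 in RefSeq, chromosome 5, 14084192 to 14085595, minus strand), had 1475 FPKM in *ifc* against 921 in WT (1.602-fold, log2 0.68). It is matched to *Arabidopsis* GRP8, a small RNA-binding protein whose transcript follows the circadian clock. It alone made up 38.0% of the summed FPKM of all members in *ifc* and 26.8% in WT. With it the members summed to 3884 in *ifc* and 3435 in WT, and without it to 2409 and 2514, so the direction of the total rested on this gene. The match of the related GRP7, GRMZM2G080603, which is not a member and was looked at after its values were seen, had 5697 and 4187 (1.36-fold).

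The abscisic stress ripening gene GRMZM2G136910 (*asr1* in RefSeq), of a family of small hydrophilic proteins induced by drying, had 305 FPKM in *ifc* against 424 in WT (1.39-fold lower). It and GRMZM2G165901 were both found by the word abscisic in their descriptions and had ratios of opposite sign. The AHG2 match GRMZM2G301246, a poly(A)-specific ribonuclease named from an ABA-hypersensitive mutant, had 8.20 and 7.99.

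Among members above 2 FPKM, those that passed the 1.5-fold limit by the least were the CYP707A1 match GRMZM2G126505 at 1.51 and GRMZM2G165901 at 1.602. Those that fell short of it by the least were the AAO3 match GRMZM2G002315 at 1.44 and the *asr1* gene at 1.39. By level, 5 of the 8 members not above 2 FPKM were higher in *ifc*, 62.5% beside 62.7% of all rows at that level.

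**Figure D4:**
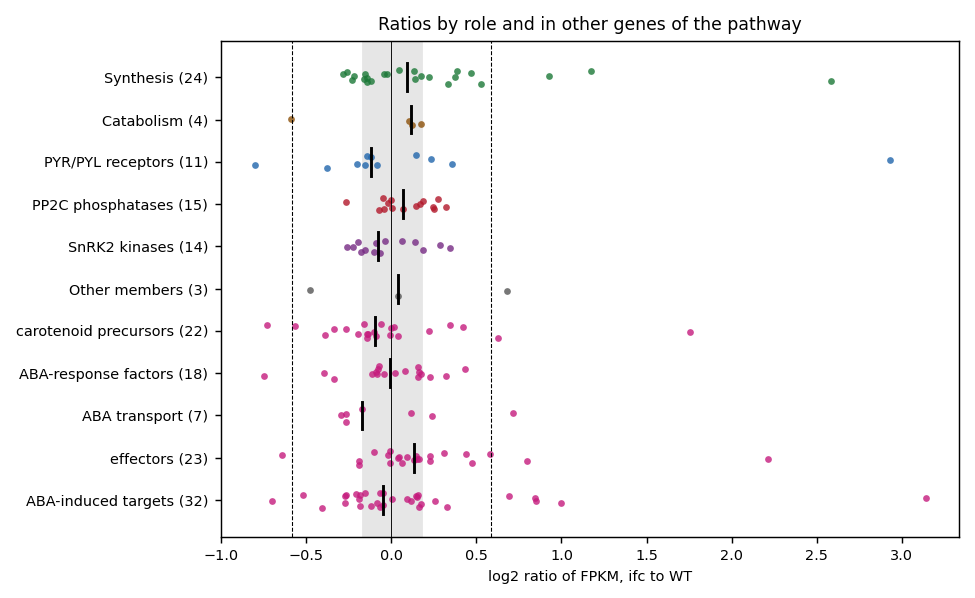
Log2 ratio of FPKM in *ifc* to WT for the 71 abscisic acid genes by role and for other genes of the pathway by list, with the number of genes in brackets and without the rows caught by an alias of another protein. Black bars mark medians, the grey band the middle 50% of all rows, and dashed lines 1.5-fold. The medians of the roles lie between -0.12 and 0.11, inside the grey band.

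Genes around the pathway were read from 5 further lists. Of 23 carotenoid precursor rows, 1 was past the fold (4.35%, beside 5.55% of all rows), the BCH1 match GRMZM2G152135, a beta-carotene hydroxylase that makes zeaxanthin, with 70.7 FPKM in *ifc* against 45.7 in WT (1.55-fold higher). The other 3 BCH1 matches were not, and the list's median log2 ratio was -0.09. One row of this list was the GRP7 match named above, caught through the shared alias CCR2. Beyond carotenoid synthesis, the list also held the 4-hydroxyphenylpyruvate dioxygenase GRMZM2G088396 and the carotenoid cleavage dioxygenases GRMZM2G158657 and GRMZM2G446858. None of these was past the fold. Of 7 ABA transport rows, 0 were past the fold, beside 5.55% of all rows.

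Of 18 ABA-response transcription factor rows, 1 was past the fold (5.56%, beside 5.55% of all rows). This was the ABI3 match GRMZM2G149940, with 1.68 in *ifc* and 2.82 in WT (1.68-fold lower), of the B3 factors that control seed maturation. The other ABI3 match, GRMZM2G125596, had 20.0 and 26.3. The ABF4 match GRMZM2G033413, a bZIP factor that SnRK2 kinases phosphorylate in *Arabidopsis*, was the highest of the list with 171 and 216. Its median was -0.01, with 9 rows higher in *ifc* and 9 lower.

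Of 25 effector rows, 2 were past the fold (8%, beside 5.55% of all rows), both higher in *ifc*, where 3.43% of all rows were. The RBOHD match GRMZM2G300965, an NADPH oxidase that makes reactive oxygen at the plasma membrane, had 6.96 FPKM in *ifc* against 1.5003 in WT (4.64-fold). Another RBOHD match, GRMZM2G441541, had 24.9 and 16.7 and stayed just under the limit, and another, GRMZM2G037993, had 1.69 and 1.62. The SLAH2 match GRMZM2G080887, of the anion channels related to SLAC1, had 4.90 and 2.82 (1.74-fold). The list's median was 0.13, and 2 of its rows were thiolases caught by the alias KAT2. Many of its other rows were RGLG1, RGLG2, KEG and DDB1A matches, of ubiquitin ligases and their parts rather than oxidases or channels. None of these was past the fold, and the share and median above include them.

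Of 33 rows listed as ABA-induced targets by *Arabidopsis* symbol, 3 were past the fold (9.09%, beside 5.55% of all rows). All 3 were higher in *ifc*, where 3.43% of all rows were. The RD29B match GRMZM2G376743 had 3.14 FPKM in *ifc* against 0.356 in WT (8.82-fold). The ATHB-7 match GRMZM2G034113, an HD-ZIP factor that is raised by ABA and water deficit in *Arabidopsis*, had 10.6 and 5.30 (2.00-fold), and the ATHB-7 match GRMZM2G396527 had 3.36 and 1.87. A further ATHB-7 match, GRMZM2G351330, had 1.81 and 1.00, under the minimum, while the most abundant, GRMZM2G041462, had 47.5 and 49.1.

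The dehydrins of that list, proteins that protect drying cells, had ratios of both signs, none past the fold. The dehydrin DHN1, GRMZM2G079440, had 12.9 FPKM in *ifc* against 10.8 in WT. The ERD10 match GRMZM2G373522 had 159 and 191, and the COR47 match GRMZM2G147014 had 50.5 and 57.3. The median of the 33 rows was -0.05, and 1 of them was a Ras-related GTPase caught by the alias RAB18. The list took in the HVA22 and AFP matches as families, and whether ABA induces each of these genes was not checked.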

How the data were processed

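RNA-seq was done on 3 libraries of *ifc* and 3 of WT ovaries. By the study's methods, ribosomal RNA was depleted and strand-specific libraries were made, while the labels name a TruSeq kit. Reads were aligned by the authors with TopHat2 to B73 RefGen_v3 and exonic reads kept with BEDTools. The deposited FPKM values come from the authors' run of Cufflinks and Cuffdiff on the reads pooled by phenotype, under quartile normalization and with their options for multiple mapping and for sequence bias. The authors' own fold, p and q columns were not used. The deposited table gives no counts, and counting intervals are therefore left out. The mapped reads and the values per library in the study's supplement were not used here.

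Log2 ratios were taken from the plain FPKM. Members overlapping another row, on either strand, numbered 3. The word abscisic was matched in any case of letters (70 members with lower case only). Lists of pathway and marker genes, 10 in all, were matched by *Arabidopsis* symbol, so 7 rows came in by an alias of another protein, of which 0 were past the fold. Genes named in the text are every member past the fold, the 4 highest of each role, and up to 3 genes past the fold of each list. Others were added for description after their values were seen. The members and lists were chosen with earlier results of these data known. RefSeq synonyms matched 52 members, and sequences were not used here. In all, 23 alternatives were planned. The code was tested on simulated data. Python 3.11.15 with pandas 2.3.3, numpy 2.4.6 and matplotlib 3.10.9 was used.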

Additional observations from a re-analysis of the deposited data

How the results depend on the processing

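The count of members past the fold, 3 as reported, was 62 with equal total FPKM (all higher in *ifc*, beside 89.6% of all rows), 7 with no minimum FPKM (beside 10.8%), 1 with an FPKM above 10 (beside 2.28%), 1 with a fold above 2 (beside 1.7%) and 10 with the lower fold limit (beside 17.7%). It was 3 or 2 under the other settings. The median log2 ratio was 1.13 with equal totals (all rows 1.12) and lay between -0.04 and 0.03 otherwise, so its sign is not fixed. The equal totals shift every ratio because a single row holds 55.6% of WT. They also reverse the CYP707A1 match GRMZM2G126505, to a log2 ratio of 0.53. No paired analysis was possible because the deposited table holds 1 pooled value per phenotype, and no library could be left out of it for the same reason. The values per library in the study's supplement were not used here. The spread between libraries is therefore not known for any ratio given, and low values have no counting interval.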

Other observations

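Beyond the symbol lists, 173 rows that are not members carried the gene ontology term for response to abscisic acid, and this set was added after the values were seen. Of these, 9 were past the fold higher in *ifc* and 2 lower (6.36% together, beside 5.55% of all rows), and their median log2 ratio was -0.00083. Among the higher was a LOX1 match, the lipoxygenase GRMZM2G156861, with 82.9 FPKM in *ifc* against 29.3 in WT. Other LOX1 matches of the set were not past the fold. They were GRMZM2G102760 with 105 and 96.1, GRMZM2G109130 with 38.1 and 35.4, and GRMZM2G109056 with 22.55 and 18.1. Also higher was the GTG1 match GRMZM2G129169, a membrane protein once proposed as an ABA receptor in *Arabidopsis*, with 12.2 and 6.71. A pair of aquaporins of the same subfamily had ratios of opposite sign. Aquaporin PIP2-4 (GRMZM2G154628) had 18.9 in *ifc* and 7.97 in WT, while PIP2-6 (GRMZM2G047368) had 30.9 and 58.0. The phosphate transporter GRMZM2G112377 had 104 in *ifc* and 181 in WT. Apart from the other LOX1 matches, these genes were named for their values. The values have no error, and no difference was tested.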
